A study of Mus musculus with 7 samples.

Results

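A set of 9 genes of the ETS family, Ets1, Ets2, Fli1, Elf1, Elf4, Gabpa, Etv6, Elk3 and Spi1, was examined for occupancy by Runx3 and for H3K4me1 in unstimulated CD8-positive T cells (CD8-TC). They had been listed as ETS genes bound by Runx3 and were selected on the Runx3 and H3K4me1 lists described here. A region was assigned to a gene when its midpoint lay in the gene body or within 50 kb of it. By this rule 19 of the 4934 Runx3-bound regions and 200 of the 76705 H3K4me1-marked regions belonged to the 9 genes. The name of the list did not hold for every gene. Runx3-bound regions lay at 6 of the 9 genes (Ets1, Fli1, Elf1, Spi1, Ets2 and Elf4), and 0 regions lay at Gabpa, Etv6 and Elk3. Among all 22350 protein-coding genes of the annotation, 30.8% had at least 1 Runx3-bound region by the same rule. As the genes were selected on Runx3 binding, these counts describe them and were not tested.

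ETS factors share a DNA-binding domain, the ETS domain, that recognises a GGAA core. RUNX factors bind TGTGGT and related sequences as partners of Cbfb, and RUNX and ETS proteins can bind side by side on lymphoid enhancers. Ets1 and Fli1 are ETS factors of blood cells, and Ets1 is needed for the development of T and natural killer cells. Elf4 restrains the proliferation of naive CD8-TC. Spi1, also called PU.1, directs myeloid and B cell development and is switched off in T cells. Monomethylation of histone H3 at lysine 4 (H3K4me1) marks enhancers, both active and poised.

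ChIP-seq, the sequencing of immunoprecipitated chromatin, was carried out on splenic CD8-TC of wild-type ICR mice, isolated with anti-CD8 beads from a pool of 18 mice and not activated; age and sex were not given in the sources used here. For Runx3, 3 libraries came from 2 biological repeats and a polyclonal antibody. The H3K4me1 group and the control group, made with non-immune rabbit serum (NIS), held 2 libraries each. The repeats were joined before regions were called against NIS, so each antibody has 1 list, no value below has a replicate error, and the lists give neither height nor read depth. The labels give a purity of over 95%. Regions were also counted at genes of T cells, B cells and myeloid cells by the 50 kb rule, which takes in neighbouring genes. Over all protein-coding genes the median was 7 H3K4me1-marked regions, and 30.8% of genes had at least 1 Runx3-bound region. The T cell genes Cd3e, Cd3g, Cd8a, Cd8b1 and Lck had 17 to 30 H3K4me1-marked and 3 to 7 Runx3-bound regions each. The windows of Cd3e and Cd3g overlap, as do those of Cd8a and Cd8b1, so a region can count for both genes. In the gene bodies of Cd3e, Cd3g, Cd8a and Cd8b1 lay 0 Runx3-bound regions. The B cell genes Cd79a, Ms4a1 and Pax5 had 14, 12 and 28 H3K4me1-marked and 2, 0 and 1 Runx3-bound regions. The myeloid genes Csf1r, Lyz2, Itgam and Cd14 had 7, 1, 26 and 11 H3K4me1-marked and 0, 0, 2 and 0 Runx3-bound regions. Csf1r and Lyz2 thus did not exceed the median of all genes in H3K4me1. The presence of a mark does not measure expression.

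The sequence at the midpoints of Runx3-bound regions shows the letters at which RUNX and ETS matches were counted. For each gene the 200 bp around the midpoint are given for the region nearest to one of its own annotated transcription start sites (TSSs) and for the region with the closest pair of RUNX and ETS matches. A further region of Ets1 is given because it held the most RUNX matches, a choice made after its values were seen. Capitals mark the RUNX matches (the hexamers TGTGGT or TGTGGC or TGCGGT or TGCGGC) and the ETS matches (the hexamers AGGAAA or AGGAAG or CGGAAA or CGGAAG) on either strand. The plus strand of mm9 is printed, so a match on the minus strand appears as its reverse complement.
Ets1, upstream, closest pair, chr9:32399671-32399870: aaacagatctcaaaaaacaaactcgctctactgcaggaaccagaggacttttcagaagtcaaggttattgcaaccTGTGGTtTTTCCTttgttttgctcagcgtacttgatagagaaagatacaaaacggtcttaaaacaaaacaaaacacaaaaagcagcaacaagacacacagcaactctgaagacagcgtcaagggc
Ets1, upstream of the internal TSS, chr9:32501015-32501214: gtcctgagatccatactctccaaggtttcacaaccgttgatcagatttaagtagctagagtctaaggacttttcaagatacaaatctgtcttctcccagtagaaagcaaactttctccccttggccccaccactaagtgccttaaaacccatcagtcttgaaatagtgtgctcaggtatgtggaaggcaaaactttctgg
Ets1, intron, most RUNX matches, chr9:32517971-32518170: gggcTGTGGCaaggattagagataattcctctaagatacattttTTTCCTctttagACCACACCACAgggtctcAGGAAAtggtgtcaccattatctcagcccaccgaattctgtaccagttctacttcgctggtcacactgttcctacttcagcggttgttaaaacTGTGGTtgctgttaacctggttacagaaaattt
Fli1, intron, nearest to the TSS, chr9:32347027-32347226: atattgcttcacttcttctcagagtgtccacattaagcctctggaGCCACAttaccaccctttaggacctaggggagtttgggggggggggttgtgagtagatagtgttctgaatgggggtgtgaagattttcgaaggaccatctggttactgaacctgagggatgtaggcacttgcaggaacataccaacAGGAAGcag
Fli1, intron, closest pair, chr9:32317382-32317581: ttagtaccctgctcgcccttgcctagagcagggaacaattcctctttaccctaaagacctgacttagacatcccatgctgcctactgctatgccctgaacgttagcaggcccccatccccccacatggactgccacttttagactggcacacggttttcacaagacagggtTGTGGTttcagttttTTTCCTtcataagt
Elf1, intron, nearest to a TSS, chr14:79932051-79932250: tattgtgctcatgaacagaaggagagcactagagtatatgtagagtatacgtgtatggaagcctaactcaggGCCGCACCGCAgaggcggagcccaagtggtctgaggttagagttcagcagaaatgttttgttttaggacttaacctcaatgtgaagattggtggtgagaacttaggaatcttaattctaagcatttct
Elf1, beyond the 3′ end, closest pair, chr14:79990913-79991112: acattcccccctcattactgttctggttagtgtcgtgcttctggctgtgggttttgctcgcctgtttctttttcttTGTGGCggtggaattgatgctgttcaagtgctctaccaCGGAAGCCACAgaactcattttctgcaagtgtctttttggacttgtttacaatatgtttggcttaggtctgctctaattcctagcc
Ets2, beyond the 3′ end, chr16:95971398-95971597: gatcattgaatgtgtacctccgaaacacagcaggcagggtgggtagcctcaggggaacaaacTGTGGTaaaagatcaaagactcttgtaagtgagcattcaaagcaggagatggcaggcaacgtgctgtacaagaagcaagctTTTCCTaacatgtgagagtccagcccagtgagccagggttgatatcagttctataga
Elf4, intron, chrX:45777780-45777979: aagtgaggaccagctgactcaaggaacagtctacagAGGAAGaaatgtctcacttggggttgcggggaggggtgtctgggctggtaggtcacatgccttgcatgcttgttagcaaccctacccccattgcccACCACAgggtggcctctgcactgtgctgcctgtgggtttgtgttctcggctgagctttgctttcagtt
Spi1, upstream, chr2:90910587-90910786: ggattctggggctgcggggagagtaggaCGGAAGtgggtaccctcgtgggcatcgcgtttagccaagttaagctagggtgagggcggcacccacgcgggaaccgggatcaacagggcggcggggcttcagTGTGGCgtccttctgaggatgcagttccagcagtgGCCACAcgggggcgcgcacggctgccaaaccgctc

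Ets1 (ENSMUSG00000032035.7, chr9:32443806-32565405, plus strand) and Fli1 (ENSMUSG00000016087.6, chr9:32229793-32348974, minus strand) are neighbours on chromosome 9 and point away from each other. Each had 6 Runx3-bound regions, so that 12 of the 19 regions lay at this pair. At least 6 regions were found at 52 of all protein-coding genes (0.233%). Both genes are long, and 8.31% of genes were at least as long as Ets1. Per 100 kb of window the number was 2.71 for Ets1 and 2.74 for Fli1, a density reached by 1.44% and 1.36% of genes.

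Of the regions of Ets1, 3 lay upstream of the gene and 3 in its introns. The upstream regions were chr9:32399378-32400162, chr9:32423221-32424005 and chr9:32428110-32428535, with midpoints 44036, 20193 and 15484 bp from the first TSS. All 3 lay in the intergenic segment between Fli1 and Ets1, and Ets1 was their nearest protein-coding gene. The region chr9:32500758-32501470 lay 2513 bp upstream of an internal TSS of Ets1, from which shorter transcripts start. The other intronic regions, chr9:32513501-32514313 and chr9:32517696-32518445, lay 10280 and 14443 bp downstream of the same TSS. Their midpoints were 4163 bp apart, and those of the nearest upstream regions 4709 bp apart, and the other neighbours were 12.8 to 72.8 kb apart. Their widths were 426 to 813 bp, all below the median of 851 bp of the whole Runx3 list. None lay within 1 kb of a TSS of Ets1.

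At Fli1, 5 of the 6 Runx3-bound regions lay in introns. The midpoint of chr9:32346781-32347472 was 1848 bp downstream of the only annotated TSS of Fli1, the shortest distance between a Runx3-bound region and an own TSS among the 19. The others, chr9:32325612-32326494, chr9:32317215-32317748, chr9:32314741-32315618 and chr9:32307003-32308340, lay 22921, 31493, 33795 and 41303 bp downstream. The last measured 1338 bp and was the widest of the 19, whereas its neighbours measured 534 to 883 bp. The remaining region, chr9:32202272-32202936, lay 27189 bp beyond the 3′ end of Fli1 in an intron of Kcnj1, a potassium channel gene, and 1034 bp from the nearest annotated TSS. The region 44036 bp upstream of Ets1 was 50796 bp from the gene body of Fli1, just outside the 50 kb limit, and the farthest region inside the limit at any of the 9 genes was that same region, 44036 bp from Ets1. The next region outside the window of Ets1 was 57797 bp from the gene.

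Elf1, a lymphoid ETS factor (ENSMUSG00000036461.8, chr14:79881001-79982283, plus strand), had 3 Runx3-bound regions, a number reached by 3.57% of all genes. Its density of 1.49 per 100 kb of window was reached by 7.26%. The regions chr14:79931685-79932616 and chr14:79936941-79937858 lay in introns, 16657 and 21906 bp downstream of the nearest TSS of Elf1 and 5249 bp from each other. The region chr14:79990613-79991412 lay 8729 bp beyond the gene, in an intron of Sugt1 and 3514 bp from the nearest TSS of any gene. Elf4 (ENSMUSG00000031103.6, chrX:45764223-45816309, minus strand) had 1 region, chrX:45777402-45778356, in an intron 29467 bp downstream of its nearest TSS. Ets2, the close relative of Ets1 (ENSMUSG00000022895.8, chr16:95923682-95942658, plus strand), had 1 region, chr16:95971133-95971861. It was intergenic and lay 28839 bp beyond the 3′ end, with Ets2 as the nearest protein-coding gene. A count of 1 was within the 30.8% of all genes with at least 1 region.

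Spi1 (ENSMUSG00000002111.8, Sfpi1 in the annotation, chr2:90922547-90955913, plus strand) had 2 Runx3-bound regions, both upstream of it and both nearer to another gene. The region chr2:90910341-90911032 lay 11861 bp upstream of Spi1 and 112 bp from a TSS of Slc39a13, a zinc transporter gene. The region chr2:90882548-90883317 lay 39615 bp upstream of Spi1, within Rapsn and 10 bp from the annotated start of a transcript inside that gene. These were the only regions among the 19 within 1 kb of a TSS of any gene. When a region counted only for its nearest protein-coding gene, Spi1 was left with 0 regions, and 15 of the 19 regions remained with their ETS gene. At least 2 regions were found at 10.1% of all genes, and the density at Spi1, 1.5 per 100 kb, was reached by 7.19%.

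**Figure D1:**
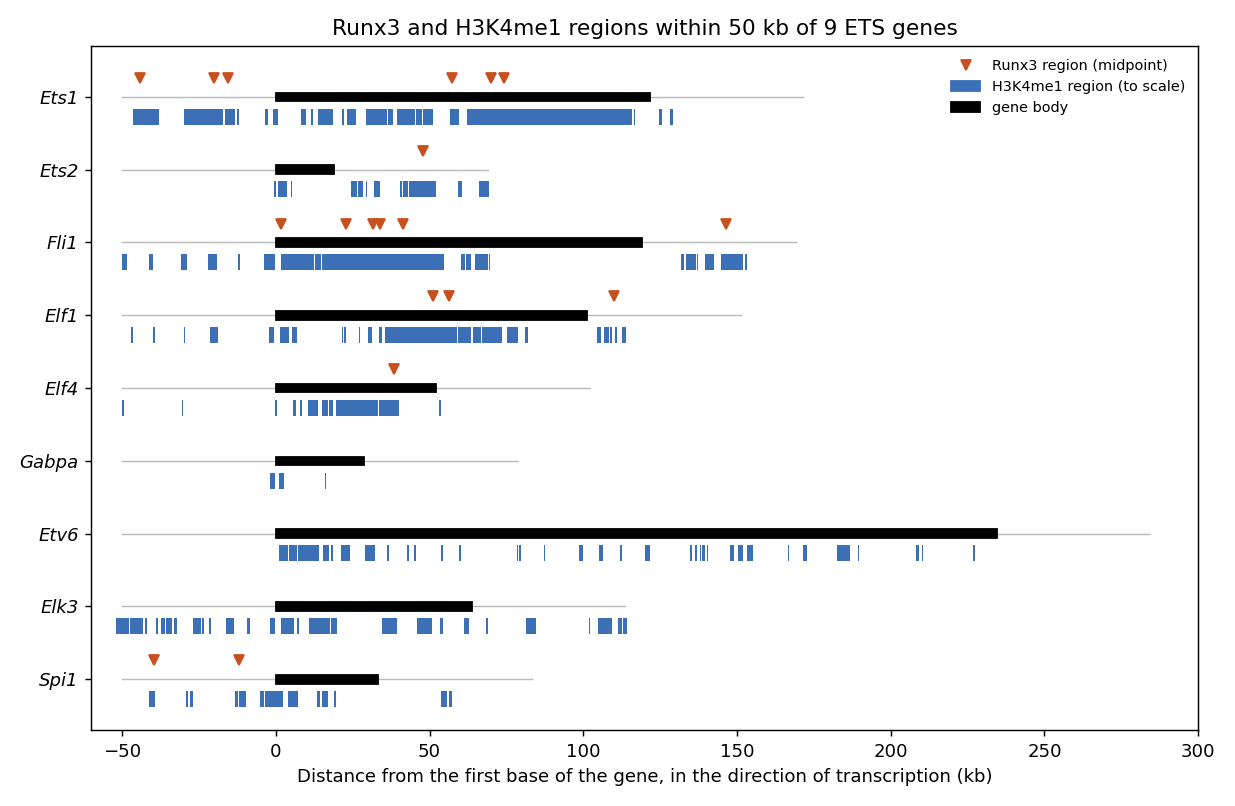
Each row plots 1 gene from 50 kb before its first base to 50 kb beyond its last, along the distance in kb in the direction of transcription. Triangles are the midpoints of the 19 Runx3-bound regions, blue blocks are H3K4me1-marked regions to scale and black bars are gene bodies. Ets1 and Fli1 hold 6 triangles each, over blue blocks of 2106 to 27110 bp, and Gabpa, Etv6 and Elk3 hold 0.

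The 3 genes without Runx3-bound regions differed in their H3K4me1. Etv6, a repressor needed for blood stem cells (ENSMUSG00000030199.9, chr6:133985718-134220176, plus strand), had 40 H3K4me1-marked regions, the largest number of the 9 genes. All 40 had their midpoint in the gene body, and 0 had it in the 50 kb on either side. Elk3, which acts together with serum response factor (ENSMUSG00000008398.7, chr10:92710159-92773880, minus strand), had 32. Of these, 13 lay upstream, 12 in the gene and 7 downstream. The 7 downstream regions, and some of those in the gene, lay in introns of Cdk17, which overlaps Elk3. Totals as high as 40 and 32 were reached by 0.371% of all genes for Etv6 and 1.02% for Elk3. Etv6 is 234.5 kb long, a length reached by 3.4% of genes, and the share of its window covered by H3K4me1 was reached by 23.7% of genes. Gabpa, which controls many genes of the mitochondria (ENSMUSG00000008976.9, chr16:84835170-84864024, plus strand), had 3, against a median of 7 over all genes. The nearest Runx3-bound region was 76048 bp from the gene body of Elk3, 144292 bp from Etv6 and 251071 bp from Gabpa, and Cdk17, Bcl2l14 and Mrpl39 were the nearest genes to those regions. The lists used here hold called regions, so binding below the calling threshold cannot be told from its absence.

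H3K4me1 covered large parts of the loci with many Runx3-bound regions. The covered share of the window was 52.3% at Ets1, 39.8% at Fli1, 35.6% at Elk3 and 30.6% at Elf1. It was 20.5% at Ets2, 20.2% at Elf4, 17.8% at Spi1, 14.0% at Etv6 and 2.96% at Gabpa, and the median of all protein-coding genes was 5.96%. Shares at least as high were found at 0.233% of genes for Ets1, 1.01% for Fli1, 1.86% for Elk3 and 3.70% for Elf1. They were found at 12.4% of genes for Ets2, 12.8% for Elf4, 16.4% for Spi1, 23.7% for Etv6 and 64.1% for Gabpa. Elk3, without Runx3, stood between Fli1 and Elf1 in this order, and the differences between neighbouring genes have no replicate error. Etv6 had more regions than Ets1 (30) but they were narrower, with a median width of 696 bp against 1703 bp.

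The widest H3K4me1-marked regions of the 9 genes lay in introns of Ets1, Fli1 and Elf1. The region chr9:32506097-32533206 in Ets1 was 27110 bp wide, rank 6 by width among the 76705, and held 2 Runx3-bound regions. The next one, chr9:32533309-32559627, also in Ets1, was 26319 bp wide and held 0. The region chr9:32299753-32323383 in Fli1 was 23631 bp wide and held 3. The region chr14:79916624-79940074 in Elf1 was 23451 bp wide and held 2. These 3 had ranks 9, 13 and 14 in the list. The widest regions of Etv6 and Elk3 measured 6801 and 6163 bp. Of the 200 H3K4me1-marked regions at the 9 genes, 16 were wider than 5 kb, or 8% against 2.78% of the whole list. The 16 regions that overlapped Runx3 had a median width of 4920 bp, and the 184 others 1038 bp. The corresponding medians in the whole list were 2260 and 946 bp. A wider region has more room for an overlap.

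**Figure D2:**
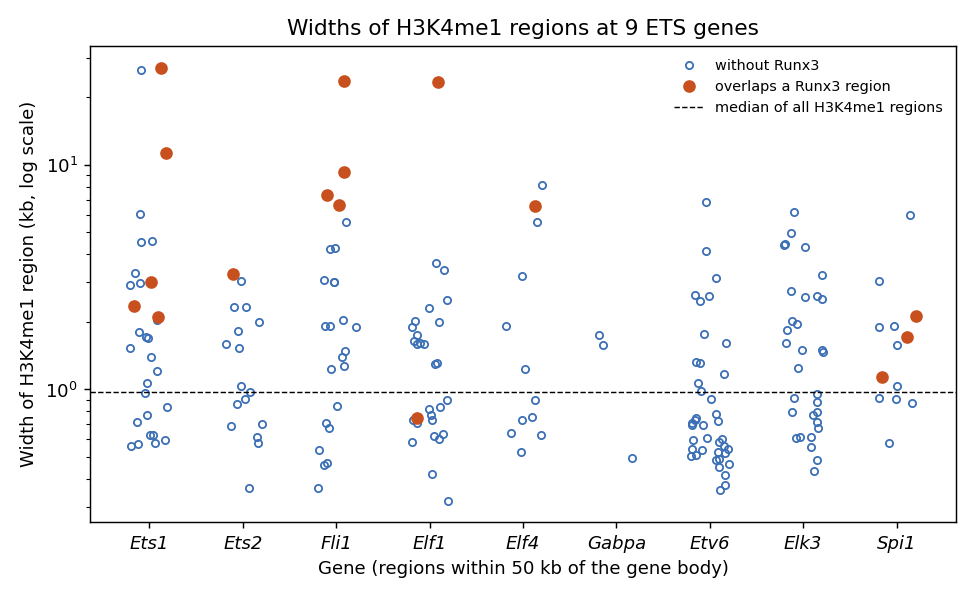
Each point is an H3K4me1-marked region within 50 kb of the named gene, with its width in kb on a log axis and a random sideways shift. Filled orange points overlap a Runx3-bound region, open points do not, and the dashed line is the median of the whole list (979 bp). The 4 points above 20 kb belong to Ets1, Fli1 and Elf1, and 3 of them overlap Runx3.

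The first TSS of the protein-coding transcripts lay inside an H3K4me1-marked region at 4 of the 9 genes, Ets1, Ets2, Elf4 and Spi1, against 17.4% of all protein-coding genes. The regions around the TSS measured 1531 bp at Ets1, 704 bp at Ets2 and 733 bp at Elf4, and 5978 bp at Spi1. At Fli1, Elf1, Gabpa and Elk3 the mark stopped short of the TSS on both sides, with the next region 117 to 445 bp upstream and 929 to 1615 bp downstream. At Etv6 it began 923 bp downstream, and the near edge of the next upstream region was 49807 bp away, with its midpoint beyond 50 kb. Ets2 was marked on 1 side. Beyond the region at its TSS the next H3K4me1-marked region upstream was 242.7 kb away, whereas 13 of its 17 regions lay downstream of the gene, where its Runx3-bound region was found. At Elf4 the next upstream region was 30077 bp from the TSS.

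All 19 Runx3-bound regions overlapped H3K4me1 by at least 1 bp (100%, Wilson 95% interval 83.2 to 100%), where 78.8% of all Runx3-bound regions did. The interval covers counting error over regions alone, and regions at 1 gene are not independent. The midpoint lay inside an H3K4me1-marked region in 17 of the 19 (89.5%), beside 66.1% of all Runx3-bound regions. At least 50% of the region was covered in 94.7%, beside 68.8%. Wholly inside a marked region lay 15 of the 19, for which no share over all Runx3-bound regions is given. The exceptions were the region of Elf1 in Sugt1, which was covered to 14.8%, the region of Spi1 at Slc39a13, covered to 52.0% by a marked region on either side, the region of Spi1 in Rapsn, covered to 81.6%, and the region of Fli1 nearest to its TSS, covered to 89.2%. These 4 include the 3 that lay in or at another gene at Elf1 and Spi1, but not the region of Fli1 in Kcnj1, which was covered to 100%. More than 5 kb from a TSS of any gene lay 13 of the 19 regions (68.4%, interval 46.0 to 84.6%), beside 63.9% of all Runx3-bound regions. Within 1 kb lay 2 (10.5%), beside 20.7%. The 19 regions had a median width of 785 bp and a range of 426 to 1338 bp. No test of these differences was made.

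A RUNX match was present in the 200 bp around the midpoint of 17 of the 19 regions (89.5%, interval 68.6 to 97.1%), beside 66.0% of all Runx3-bound regions. Windows of 200 bp at 5 kb on either side held it in 15 of 38 (39.5%), and in 27.8% for the whole list. The exceptions were the regions 2513 bp upstream of the internal TSS of Ets1 and 41303 bp into Fli1, and both held RUNX matches elsewhere in the region (1 and 2). The number of matches over whole regions was 1 to 6. At least 2 matches near the midpoint were found in 8 of the 19 regions, or 42.1% beside 28.9%. The highest number, 4, was that of the intronic region of Ets1 14443 bp from its internal TSS, printed above. Among the 27 matches TGTGGT came 14 times and TGTGGC 11 times. TGCGGT and TGCGGC came 1 time each, both in the intronic region of Elf1 at 16657 bp, where they shared a base. TGTGGT was found in 10 regions (52.6%, interval 31.7 to 72.7%), beside 46.6% of all regions. TGTGGC was found in 8 regions (42.1%, interval 23.1 to 63.7%), beside 22.4%. TGCGGT and TGCGGC were found in 1 region each (5.26%), beside 10.7% and 5.43%.

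An ETS match was present near the midpoint of 14 regions (73.7%, interval 51.2 to 88.2%), beside 63.8% of all Runx3-bound regions and 43.0% of their flanks. The flanks of the 19 regions held it in 19 of 38 (50%). The 5 regions without it were 2 of Ets1, 1 of Fli1 and both intronic regions of Elf1. A RUNX and an ETS match that shared no base and lay at most 50 bp apart were found in 6 regions (31.6%, interval 15.4 to 54.0%). All Runx3-bound regions held such a pair in 33.7%, inside this interval. With gaps of up to 100 bp the shares were 63.2% and 41.2%, so the comparison depended on the gap allowed. In the flanks the pair was found in 4 of 38 windows (10.5%), beside 6.73% for the whole list.  The 6 were 2 of Ets1, 3 of Fli1 and 1 of Elf1.

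Within the 200 bp windows the shortest spacing was that of the region 44036 bp upstream of Ets1. A TGTGGT at positions 76 to 81 of the printed 200 bp, counted from 1 at the left, was followed after 1 bp by an ETS match at 83 to 88 on the opposite strand. In the intronic region of Ets1 with 4 RUNX matches the closest pair was 6 bp apart, with an ETS match at 45 to 50 and a RUNX match at 57 to 62. In Fli1 the regions at 31493 and 22921 bp had spacings of 9 and 12 bp, and the region in Kcnj1 39 bp. A spacing of at most 12 bp within the window was found in 4 of the 19 regions (21.1%, interval 8.51 to 43.3%), all of them at Ets1 and Fli1, and in 14.9% of all Runx3-bound regions. In the region of Elf1 in Sugt1 an ETS and a RUNX match shared 1 base, at position 120, and a further RUNX match lay 32 bp away. Such shared bases were found in 2.53% of all Runx3-bound regions. At Spi1, Elf4 and Ets2 the closest matches in the window lay 75 to 105 bp apart. Over whole regions the spacing was also 1 bp in the region of Fli1 nearest to its TSS, where it was 140 bp in the window. It fell from 86 to 39 bp in the region 20193 bp upstream of Ets1 and from 90 to 43 bp at Elf4. The 5 regions without a pair in the window had spacings of 6 to 200 bp over the whole region. The shortest of these were 6 bp, 2513 bp upstream of the internal TSS of Ets1, and 14 bp, 41303 bp into Fli1. A match of letters is not a measured site, as no ETS factor was immunoprecipitated.

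**Figure D3:**
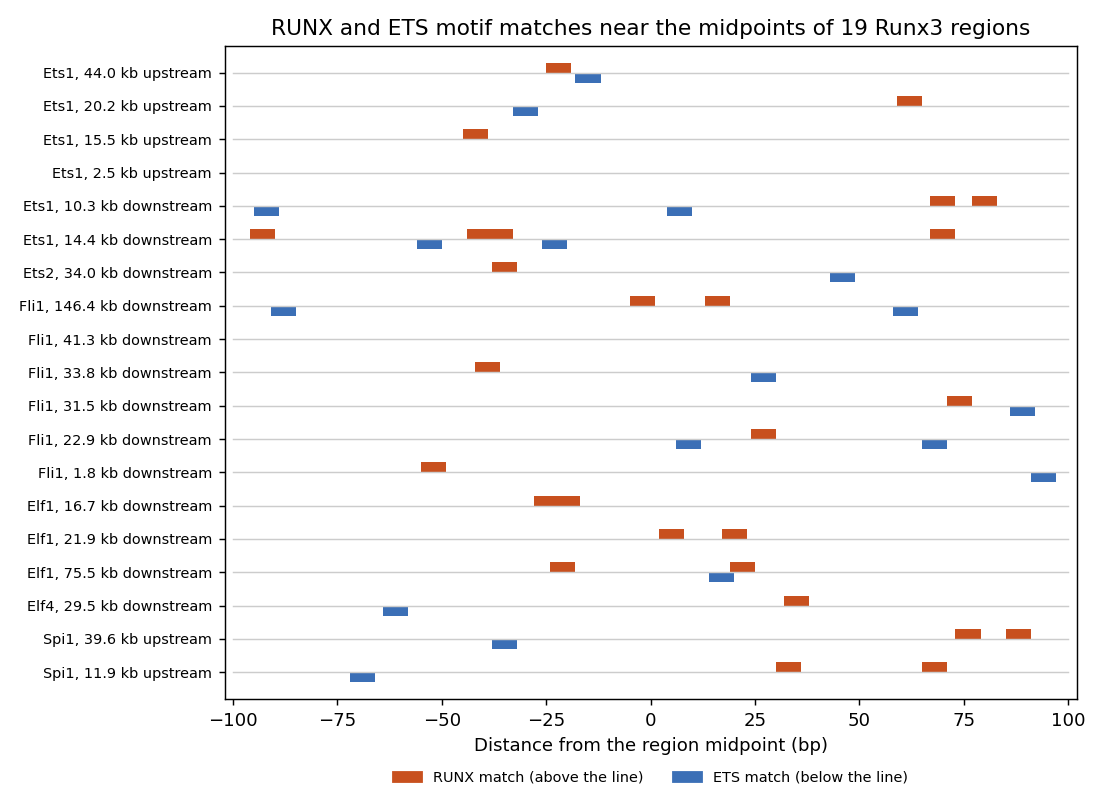
Each line is 1 of the 19 Runx3-bound regions, named by its gene and its distance from the nearest own TSS, over the 200 bp around its midpoint. Orange blocks above the line are RUNX matches and blue blocks below are ETS matches, both 6 bp wide on the bp axis. The blocks nearly touch in the region 44036 bp upstream of Ets1 and share a base in the last region of Elf1, and 2 regions are empty.

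The other 17 mouse genes with an ETS domain were counted by the same rule. Of these, 6 had Runx3-bound regions (35.3%), beside 30.8% of all protein-coding genes. They held 9 regions in all, and 11 genes had 0. Erf, a repressor controlled by ERK kinases, had 3 and Elk4, a partner of serum response factor, had 2, while Elf2, Etv3, Etv5 and Spib had 1 each. The 3 regions of Erf lay 23953 to 45261 bp from its TSS, in introns of Dedd2 and Cic. Only 3 of the 9 regions, those of Elk4 and Etv3, lay in the ETS gene itself, and in the other 6 another gene was nearer. The region chr1:133904420-133905324 lay 2 bp from a TSS of Elk4 and lacked H3K4me1, whereas none of the 19 regions at the listed genes lay within 1 kb of an own TSS or lacked the mark. The genes with 0 included Erg, the closest relative of Fli1, with 18 H3K4me1-marked regions. They also included Elf3, Elf5, Ehf, Elk1, Etv1, Etv2, Etv4, Fev, Spdef and Spic, with 2 to 11. The listed genes were also longer, with a median of 63.7 kb against 15.6 kb for the other 17 and 15.4 kb for all protein-coding genes, so their windows offered more sequence.

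Over all 26 ETS genes, the 12 with Runx3-bound regions had 11.6 to 52.3% of their window covered by H3K4me1 (median 22.6%). The 14 without had 1.37 to 35.6% (median 3.79%), and 12 of them were below 10%. The exceptions above 10% were Etv6 and Elk3. Both measures rest on the same NIS control, so they are set side by side as a description.

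**Figure D4:**
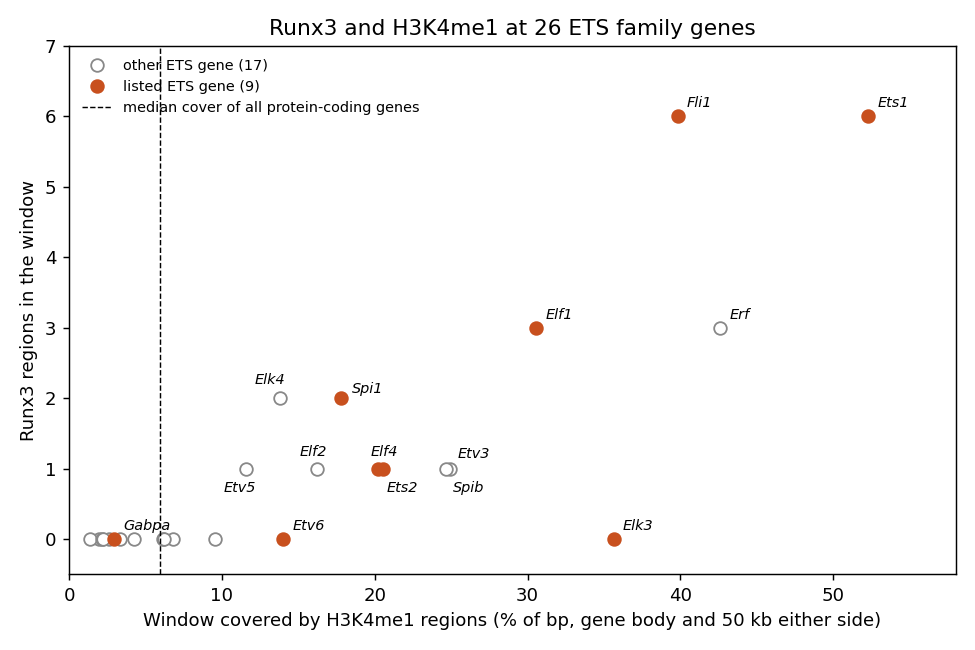
Each point is 1 of the 26 ETS genes, with the percent of bp of its window covered by H3K4me1 on the x axis and its number of Runx3-bound regions on the y axis. Filled points are the 9 listed genes, open points the other 17, and the dashed line is the median cover of all protein-coding genes (5.96%). Ets1 and Fli1 stand at the top right, Elk3 at 35.6% with 0, and the points below 10% are all at 0.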

How the data were processed

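Per the labels, reads of 40 to 42 bp came from sonicated fragments of about 300 bp of splenic CD8+ T cells. The authors aligned them to mm9 with ELAND (CASAVA 1.6 and 1.7 in the submitters' processing notes), kept unique alignments, joined the repeats and called peaks with MACS against joined NIS. The deposited lists hold positions in bp and no score. Starts were moved by 1 bp to count from 1. The NCBIM37 genome (the build mm9) and its GENCODE annotation were used. Spi1 was matched by its older symbol through the RefSeq table, and the other symbols directly. Counting and motif search (both strands, with flanking windows at 5 kb) were done in Python 3.11.15 with numpy 2.4.6, plotted with matplotlib 3.10.9 and tested on simulated data. Printed windows touch no annotated untranslated region. No test was made, because the members and lists were chosen with earlier results of these data known. All 9 members are named, and of the other ETS genes those with a Runx3-bound region are named with their counts. Promoter sequences of another build were not used here. The alternatives were other margins, membership, overlap and TSS rules, list widths and motif windows. Of the cell type marker genes, 1 is not reported here.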

Additional observations from a re-analysis of the deposited data

How the results depend on the processing

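The 19 Runx3-bound regions fell to 11 with the gene body alone, 12 with a margin of 10 kb and 6 at or above the median width of the list. The 200 H3K4me1-marked regions fell to 117 with the gene body alone, 114 with neighbours within 1000 bp merged and 110 at or above the median width. The share with a RUNX match rose to 100% in whole regions and was 63.2% in the 100 bp around the midpoint (88.8% and 43.9% for all Runx3-bound regions). The share with an ETS match was 100% and 47.4% (95.0% and 40.9%). The share with a pair within 50 bp was 63.2% when 100 bp were allowed and 57.9% in whole regions (41.2% and 58.6%). The margins, motif windows, gaps and merging admit more or fewer regions or bases by definition. The 19 regions had a median width of 785 bp, below the 851 bp of the list. At a gap of 50 bp the share with a pair was below that of all Runx3-bound regions, and at 100 bp above it. The other 16 of 28 such values stayed within 1.5 times the count or inside the 95% interval, among them overlap with H3K4me1 at 89.5 to 100% under 6 alternatives. For all Runx3-bound regions this overlap was 66.1% by midpoint and 68.8% with at least 50% covered. Gabpa and Etv6 stayed at 0 Runx3-bound regions under all 6 alternatives run for single genes, and Elk3 had 1 with a margin of 100 kb. The number of the 9 genes with a Runx3-bound region, 6 as reported, was 4 with the gene body alone or a margin of 10 kb, 3 at or above the median width, 5 with the nearest gene alone and 7 with a margin of 100 kb. Ets2 and Spi1 had 0 under the first 3 of these, and Spi1 also with the nearest gene alone. Ets1 had 3 with the gene body alone or 10 kb and 0 at or above the median width, where Fli1 had 3. With 100 kb Ets2 and Elf4 had 2 each. Counting matches that share bases, chosen after seeing the data, changed nothing. No paired analysis was possible because the authors joined the repeats before calling, and no repeat could be left out. A stricter calling threshold could not be tried without scores, so width was used instead. The lists hold no depth, so no limit of detection can be given for the genes with 0 regions.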

Other observations

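The partners of these factors were counted by the same rule. Gabpb1, a partner of Gabpa, had 2 Runx3-bound regions, of which chr2:126500872-126501918 lay 67 bp from its TSS and lacked H3K4me1, while Gabpa had 0. Gabpb2 had 2, in introns of Lysmd1 and Tnfaip8l2. On the RUNX side, Runx1 had 7 regions, all in its gene body, and 1 of them lay 12 bp from a TSS. Runx3 itself had 2, at 181 and 21938 bp upstream of its TSSs, Runx2 had 1 and Cbfb had 0. All regions of Runx1, Runx2 and Runx3 overlapped H3K4me1.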
